A study of Mus musculus with 6 samples.

Results

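The genes described here code for proteins of the mitochondrial ribosome, and were chosen by their platform symbol, which had to start with Mrpl or Mrps followed by a digit. The rule found 76 genes with 131 probes, of which 70 genes with 105 probes had a detection p-value under 0.05 on at least 3 of the 6 arrays, among 10287 genes measured in all. RNA came from vastus lateralis, a muscle of the thigh, of C57Bl/6J females aged 4 weeks. In 3 mice FRG1 (FSHD region gene 1) was overexpressed (Sample871, Sample873 and Sample874 in the labels), and 3 mice were wild type, WT (Sample872, Sample906 and Sample923). The labels give no other allele or agent, and name neither the promoter that drives FRG1 nor the transgenic line. Each sample was hybridised to 1 Illumina bead array, so the precision of each value is limited by the number of arrays.

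Mitochondria carry their own ribosome, which translates the few mRNAs coded by mitochondrial DNA, all of them subunits of the oxidative phosphorylation complexes. Its proteins are nuclear coded, made in the cytosol and imported. The small subunit (proteins named Mrps) binds and decodes the mRNA, and the large subunit (proteins named Mrpl) joins the amino acids into a chain. Part of the proteins descend from the bacterial ribosome, and others were added in mitochondria. In skeletal muscle, which is rich in mitochondria, inherited defects of several of these proteins in humans impair oxidative phosphorylation.

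Arrays had summed signals of 10537335 to 13062182, and 17957 to 20000 of its 46632 probes were detected. Pearson correlations between arrays over the retained probes were 0.99 to 0.993 within FRG1, 0.982 to 0.991 within WT, and 0.966 to 0.98 between the groups. The single probe of mouse Frg1 was detected on 0 of the 6 arrays, so it does not check the labels. All 7 measured markers of skeletal muscle (8 were listed) were detected on every array, and Myh4, a fast myosin heavy chain, was the one past the threshold (log2 fold change -0.45, adjusted p = 0.0446). FRG1 Sample871 stood apart in neutrophil genes, with S100a8 at 10.21, against 6.01 and 5.92 on the other FRG1 arrays and 5.07 to 5.16 in WT, and the members' counts are given with and without it. Genes of other cells differed between the groups, and their values stand beside the members' counts further on. In whole muscle, fewer cells of a type and less RNA per cell cannot be told apart.

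Mitochondrial ribosomal protein genes differed little in measured level between FRG1 and WT muscle, and few passed the test. With limma's test at an adjusted p under 0.05 over all retained probes, 4 genes were higher in FRG1 muscle (Mrps34, Mrpl43, Mrpl46 and Mrpl40), by 1.38-fold to 1.46-fold, and 1 was lower (Mrps26), by 1.46-fold (WT over FRG1). The other 65 did not pass. Of all genes measured, 7.53% were higher and 7.23% lower by the same test, against 5.71% and 1.43% of the members. The members' share of higher genes lay near the background share, and that of lower genes below it. Neither difference was tested. Across the alternative settings 0 to 6 members were higher and 0 to 2 lower. Without FRG1 Sample871 or without FRG1 Sample873, 0 members passed in either direction, with adjusted p between 0.0569 and 0.097 for the 5 genes and the same direction for each, while the count over all probes fell to 1334 or 1330, against 2702 with all arrays. Without FRG1 Sample874, and likewise without WT Sample906, 2 members were higher and 1 was lower.

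The members' median log2 fold change was 0.02, with quartiles at -0.08 and 0.20. Over all genes the median was -0.03, with quartiles at -0.22 and 0.17. Throughout, positive changes stand for a higher level in FRG1 muscle. Of the 70 members, 38 had a positive and 32 a negative value, and the whole range ran between -0.54 and 0.54. An absolute change under 0.25 was seen in 53 members, against 58.7% of all genes, and one of at least 0.5 in 4 members, against 14.3%. The 95% interval of the change lay within 0.5 on either side of 0 for 42 members, against 45.1% of all genes. For the remaining members the arrays do not bound the change that tightly, and a p-value over the threshold does not show that a level was equal. Standard errors of the members' changes ran between 0.11 and 0.26, with a median of 0.12.

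**Figure D1:**
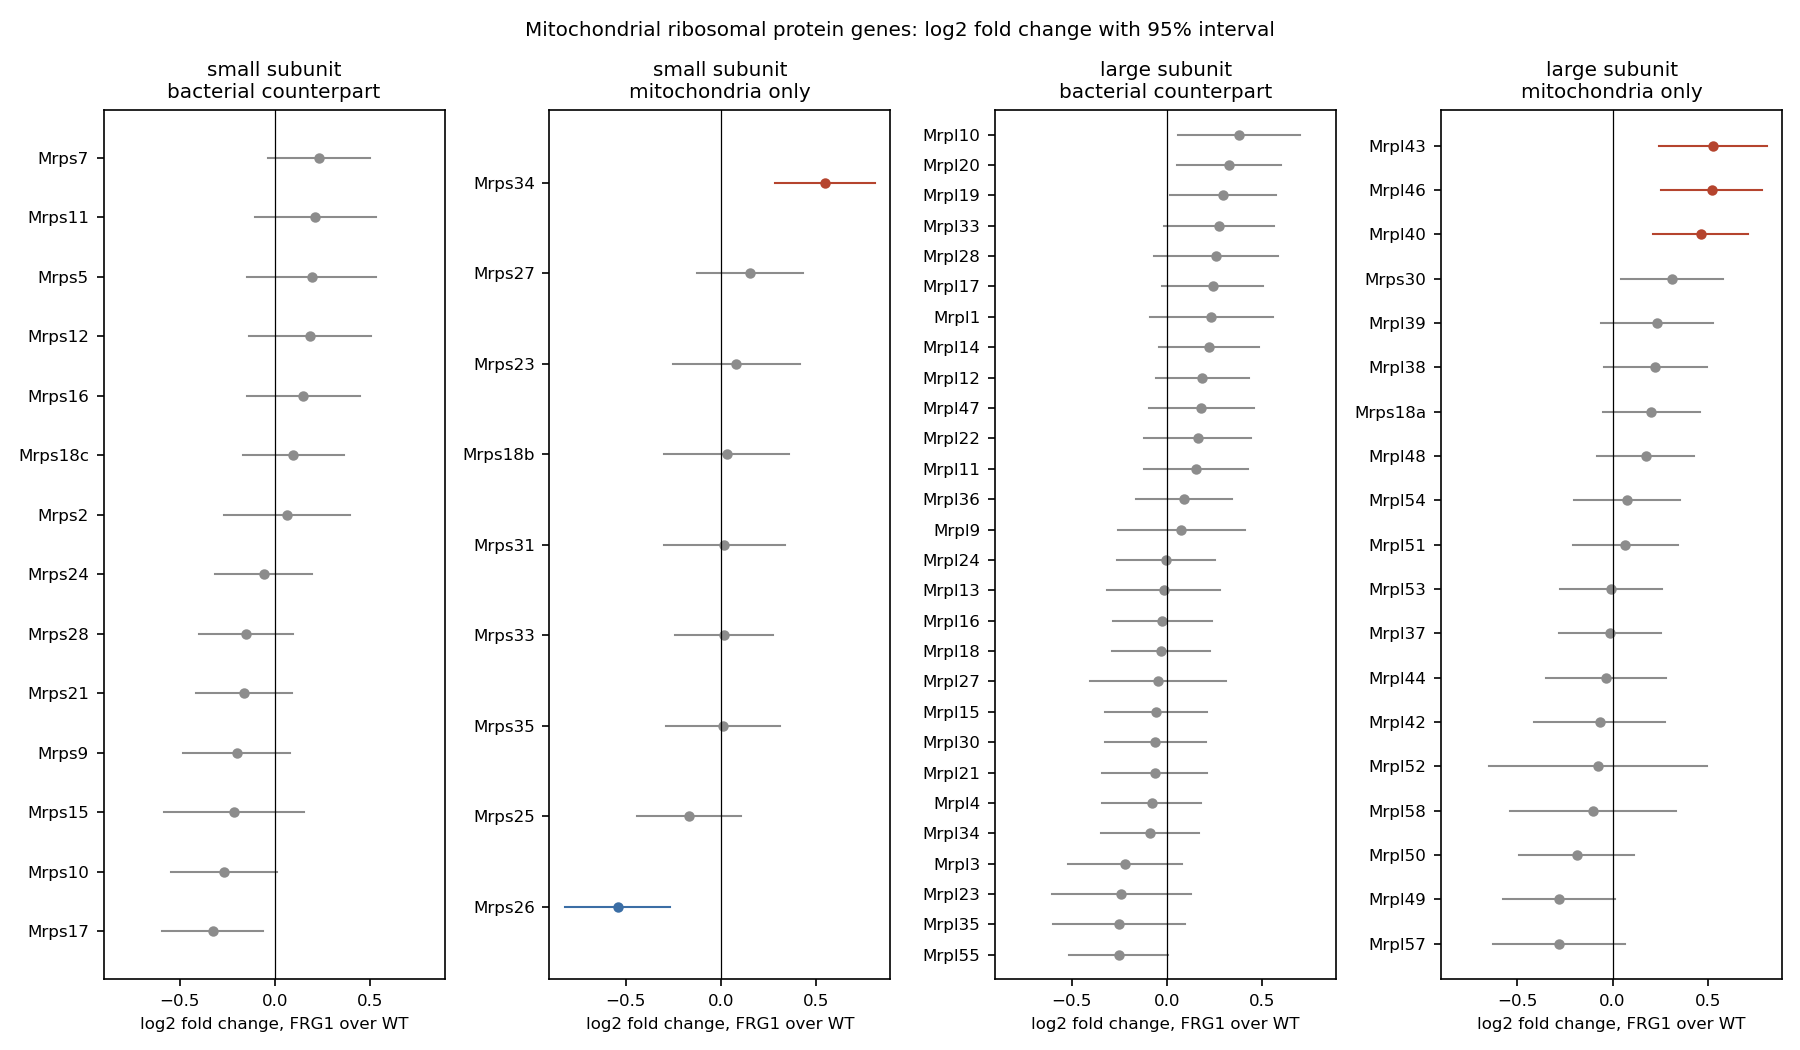
Log2 fold change (FRG1 over WT, x axis) of each of the 70 members, with its 95% interval from limma, in 4 panels by subunit and origin. Red points are the 4 genes past the threshold and higher in FRG1 muscle, the blue point is Mrps26, which was lower, and grey points did not pass. Most points lie within 0.25 of 0.

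In 23 members the 3 FRG1 values and the 3 WT values did not overlap, 16 of them with FRG1 higher and 7 with FRG1 lower. Over all genes 36.6% did not overlap, with FRG1 higher in 16.9% and lower in 19.8%. The spread within a group was small, with a median SD of 0.09 in FRG1 and 0.12 in WT. Mrpl12, whose product is part of the flexible stalk of the large subunit, had the narrowest FRG1 values, at 11.70 on each of the 3 arrays, against 11.53, 11.48 and 11.53 in WT. Its groups did not overlap, yet its log2 fold change of 0.19 did not pass (adjusted p = 0.304). Mrpl52, a large subunit protein without bacterial counterpart, had the widest, with 8.44, 8.79 and 7.67 in FRG1 and 8.45, 8.59 and 8.07 in WT.

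The WT arrays differed among themselves, in the members as in all genes. WT Sample906 was the lowest of the 3 WT arrays in 37 members, and WT Sample923 was the highest in 45. Measured from the WT mean of each gene, the median member stood at 0.01, 0.04 and 0.11 on Sample871, Sample873 and Sample874 of FRG1, and at -0.02, -0.06 and 0.09 on Sample872, Sample906 and Sample923 of WT. The groups overlapped in this median. Over all genes the same median stood at -0.03, -0.03 and -0.02 on the FRG1 arrays and at -0.0038, -0.04 and 0.05 on the WT arrays, in the same order of samples, so the order among WT arrays was shared by all genes.

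Of the 5 genes past the threshold, all coded for proteins that mitochondria added to the ribosome, of which 28 were measured. Of these 28, 4 were higher and 1 was lower, where 7.53% and 7.23% of all genes were. Of the 42 measured members with a bacterial counterpart, 0 passed by their brightest probe. A dimmer probe did pass, lower in FRG1 muscle, for each of Mrps5, Mrpl35 and Mrpl3, which have a bacterial counterpart. An unadjusted p under 0.05 was reached by 10 members, against 30.5% of all genes, and of the 5 that did not pass after adjustment 4 have a bacterial counterpart. The difference between the 2 sets was not tested.

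Mrps34 codes for a small subunit protein in which human mutations cause Leigh syndrome, a disease of oxidative phosphorylation. Its probe (ILMN_2655774) had normalized log2 intensities of 11.27, 11.34 and 11.26 in FRG1 muscle, against 10.82, 10.61 and 10.80 in WT. Every FRG1 array lay above every WT array. The log2 fold change was 0.54 ± 0.12 (SE, n = 3 each, adjusted p = 0.0142 with limma).

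Mrpl46 and Mrpl40 code for large subunit proteins that have no bacterial counterpart. Mrpl46 (ILMN_2740922) stood at 10.57, 10.53 and 10.58 in FRG1 muscle, against 10.10, 9.89 and 10.12 in WT. Mrpl40 (ILMN_2609087) stood at 9.68, 9.76 and 9.73 in FRG1 muscle, against 9.32, 9.27 and 9.20 in WT. Neither gene overlapped between the groups, and the log2 fold changes were 0.52 ± 0.12 for Mrpl46 and 0.46 ± 0.11 for Mrpl40 (SE, n = 3 each). Limma's adjusted p was 0.0188 for Mrpl46 and 0.0239 for Mrpl40. Both calls were also lost without FRG1 Sample874 (adjusted p = 0.0543 and 0.0606) and without WT Sample906 (adjusted p = 0.0606 and 0.0571).

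Mrpl43 was measured by 2 probes, which shared their direction. The brighter one (ILMN_2598222) read 10.99, 11.02 and 10.91 in FRG1 muscle, against 10.43, 10.62 and 10.29 in WT, a log2 fold change of 0.53 ± 0.13 (SE, n = 3 each, adjusted p = 0.0226 with limma). The dimmer one (ILMN_2633805) read 9.07, 8.89 and 9.27 in FRG1 muscle, against 8.78, 8.74 and 8.67 in WT. Its groups did not overlap, and its log2 fold change of 0.35 ± 0.13 did not pass (adjusted p = 0.112). Without WT Sample872 the brighter probe did not pass either (adjusted p = 0.0593).

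Mrps26, a small subunit protein found in mitochondria but not in bacteria, was the one member lower in FRG1 muscle. Its probe (ILMN_2767118) stood at 6.46, 6.35 and 6.62 in FRG1 muscle, against 6.93, 7.01 and 7.11 in WT, with no overlap. The log2 fold change was -0.54 ± 0.12 (SE, n = 3 each, adjusted p = 0.0184 with limma). When arrays were scaled by their medians instead, the change was -0.35 and did not pass (adjusted p = 0.118). Under that scaling the median of all genes moved to 0.10, against -0.03 in the main analysis.

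**Figure D2:**
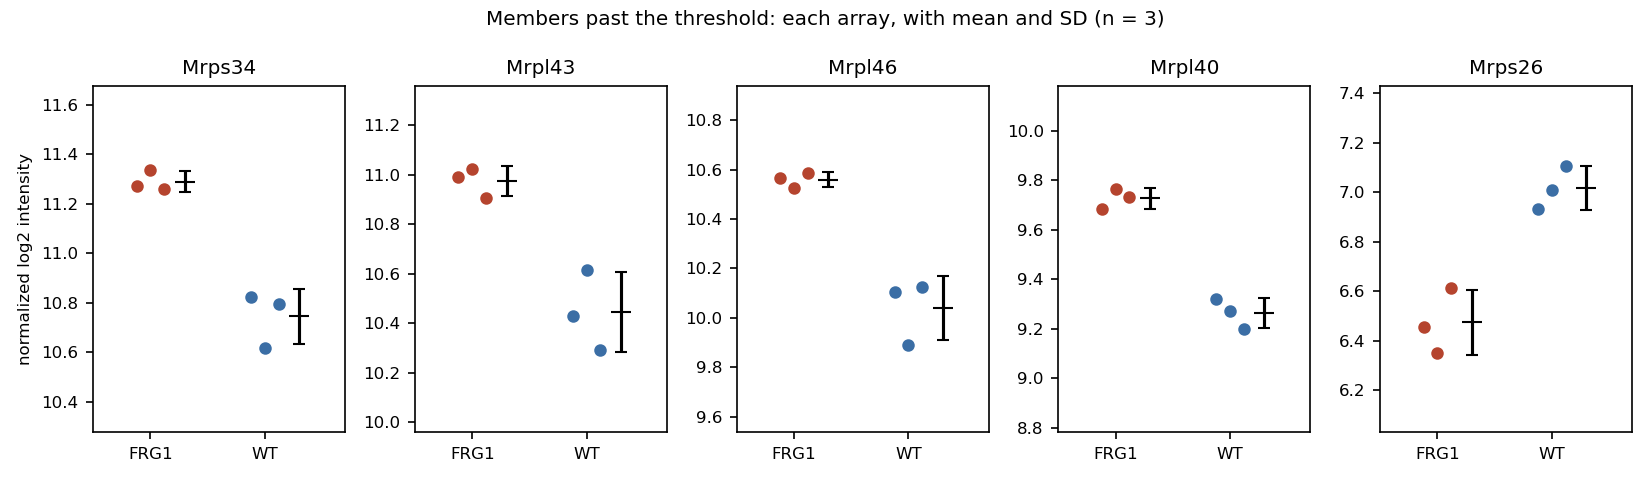
Normalized log2 intensity (y axis) of the 5 genes past the threshold on each array, FRG1 (red, left) and WT (blue, right), with the mean and SD (n = 3) beside the points. Each y axis spans the same 1.4 log2 units, and within each gene the groups do not overlap. FRG1 points run in the order Sample871, Sample873 and Sample874, and WT points in the order Sample872, Sample906 and Sample923.

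The stretches just upstream of 4 of these genes are shown because each gene starts head to head with another gene. They come from the RefSeq promoter table (build GRCm38.p6) and run 5′ to 3′ on the strand of the named gene, ending at the base before its start. For Mrpl43, Mrpl46 and Mrpl40 they cover the bases between the 2 starts, which lie before both genes, at chr19:45006443-45006557 (minus strand), chr7:78783090-78783130 (minus strand) and chr16:18876638-18876749 (minus strand). For Mrps26 they cover chr2:130563637-130563756 (plus strand). Its partner, a long noncoding RNA gene, starts 8 bases away, so most of that stretch, the marked core included, lies past the partner's start. Capitals mark CCGGAAG, the core bound by ETS factors, or its reverse complement CTTCCGG.
Mrpl43: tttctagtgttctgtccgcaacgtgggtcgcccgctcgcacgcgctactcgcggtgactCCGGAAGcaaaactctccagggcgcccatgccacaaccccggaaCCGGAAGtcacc
Mrpl46: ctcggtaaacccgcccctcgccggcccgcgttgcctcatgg
Mrpl40: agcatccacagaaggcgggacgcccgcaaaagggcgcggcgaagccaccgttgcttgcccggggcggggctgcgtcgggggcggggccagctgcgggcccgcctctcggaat
Mrps26: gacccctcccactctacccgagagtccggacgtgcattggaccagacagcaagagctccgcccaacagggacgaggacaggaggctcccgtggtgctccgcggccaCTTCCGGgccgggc

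Among the other small subunit members, none passed in either direction. Mrps17, a protein with a bacterial counterpart that binds ribosomal RNA, had the largest negative change that did not pass. It stood at 9.99, 10.05 and 9.95 in FRG1 muscle, against 10.32, 10.22 and 10.45 in WT, a log2 fold change of -0.33 ± 0.12 (SE, n = 3 each, adjusted p = 0.101). Its groups did not overlap.

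Mrps10, part of the head of the small subunit, stood at 9.06, 9.15 and 8.94 in FRG1 muscle, against 9.36, 9.18 and 9.42 in WT. Mrps21 stood at 12.01, 12.04 and 11.99 in FRG1 muscle, against 12.16, 12.10 and 12.26 in WT. Mrps9 stood at 9.42, 9.32 and 9.49 in FRG1 muscle, against 9.65, 9.44 and 9.74 in WT. The groups did not overlap for Mrps10 and Mrps21 and overlapped for Mrps9, and the adjusted p-values of the 3 ran between 0.189 and 0.389. On the positive side, Mrps7, an early-binding protein of the small subunit head, stood at 9.82, 9.87 and 9.83 in FRG1 muscle, against 9.49, 9.59 and 9.75 in WT (log2 fold change 0.23, adjusted p = 0.237). Of the 23 small subunit members 14 had a positive and 9 a negative change, with a median of 0.02. This median changed sign without FRG1 Sample874 (-0.04), without WT Sample872 (-0.02) and without WT Sample906 (-0.02), and with the probes of a gene averaged (-0.03).

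The large subunit held 47 measured members, counting Mrps30 and Mrps18a, whose products sit in the large subunit despite their names. Their median log2 fold change was 0.07, with 24 positive and 23 negative values. Mrpl10, which anchors the stalk where translation factors bind, had the largest positive change that did not pass. It stood at 6.77, 6.77 and 7.08 in FRG1 muscle, against 6.60, 6.28 and 6.60 in WT, a log2 fold change of 0.38 ± 0.14 (SE, n = 3 each, adjusted p = 0.114). Its groups did not overlap, and with median scaling it passed (log2 fold change 0.57, adjusted p = 0.0392).

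Mrpl20 stood at 10.66, 10.39 and 10.54 in FRG1 muscle, against 10.25, 10.12 and 10.24 in WT. Mrps30 stood at 11.88, 11.97 and 11.73 in FRG1 muscle, against 11.62, 11.48 and 11.54 in WT. Mrpl19 stood at 9.23, 9.16 and 9.37 in FRG1 muscle, against 9.01, 8.82 and 9.05 in WT. None of the 3 overlapped between the groups, and their log2 fold changes ran between 0.30 and 0.33 with adjusted p between 0.112 and 0.152. Mrpl17, whose bacterial counterpart lies near the exit of the peptide tunnel, stood at 11.09, 10.93 and 10.98 in FRG1 muscle, against 10.64, 10.81 and 10.83 in WT. Mrpl14, which lies at the interface with the small subunit, stood at 10.81, 10.82 and 10.95 in FRG1 muscle, against 10.57, 10.62 and 10.73 in WT. These also did not overlap, with log2 fold changes of 0.24 for Mrpl17 and 0.22 for Mrpl14 (adjusted p = 0.217 and 0.246).

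On the negative side of the large subunit, no representing probe passed. Mrpl55 stood at 9.98, 10.01 and 10.04 in FRG1 muscle, against 10.16, 10.26 and 10.37 in WT. Mrpl49 stood at 7.71, 7.88 and 7.84 in FRG1 muscle, against 8.15, 7.90 and 8.24 in WT. Mrpl57 stood at 5.23, 5.52 and 5.17 in FRG1 muscle, against 5.57, 5.36 and 5.84 in WT. Groups did not overlap for Mrpl55 and Mrpl49 and overlapped for Mrpl57, with log2 fold changes between -0.28 and -0.25 and adjusted p between 0.188 and 0.272. Mrpl23, a protein beside the peptide tunnel exit, stood at 11.55, 11.30 and 11.26 in FRG1 muscle, against 11.49, 11.40 and 11.94 in WT. Mrpl50 stood at 10.55, 10.59 and 10.56 in FRG1 muscle, against 10.99, 10.55 and 10.74 in WT. Both overlapped between the groups.

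The probes with the highest mean over the 6 arrays were those of Mrpl33, Mrpl51 and Mrpl42. Mrpl33, a small protein of the large subunit, stood at 12.81, 12.84 and 12.68 in FRG1 muscle, against 12.46, 12.36 and 12.69 in WT. Mrpl51 stood at 12.22, 12.34 and 12.51 in FRG1 muscle, against 12.35, 12.22 and 12.30 in WT. Mrpl42 stood at 11.95, 12.08 and 12.37 in FRG1 muscle, against 12.17, 12.01 and 12.42 in WT. All 3 overlapped between the groups, and none passed (adjusted p = 0.2, 0.771 and 0.822).

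Several genes had probes that did not move alike. Of the 24 members with several retained probes, 9 had probes of differing sign (Mrpl49, Mrpl1, Mrps15, Mrps5, Mrpl51, Mrpl15, Mrps33, Mrps31 and Mrpl13), against 40.3% of all genes with several retained probes. Counted by probe, 4 member probes were higher and 4 lower in FRG1 muscle, where 7.1% and 6.71% of all probes were. The 3 lower ones beyond the Mrps26 probe belong to Mrps5, Mrpl35 and Mrpl3, and none of them is the brightest probe of its gene. The sign count takes in Mrpl13 through a probe (ILMN_2601654) that was detected on 3 FRG1 arrays and 0 WT arrays, so that probe passed the detection filter through FRG1 alone.

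Mrps5, part of the mRNA entry region of the small subunit, showed the widest gap. Its probe ILMN_2489773 read 6.76, 6.92 and 6.76 in FRG1 muscle, against 7.56, 7.88 and 7.72 in WT, with no overlap and a log2 fold change of -0.90 ± 0.13 (SE, n = 3 each, adjusted p = 0.00173 with limma). Its brightest probe (ILMN_2765434) read 8.97, 9.01 and 9.14 in FRG1 muscle, against 8.88, 8.56 and 9.10 in WT, and its remaining probe (ILMN_2716014) had a value of 0.08 (adjusted p = 0.784). The platform lists the same RefSeq transcript for all 3. The low probe passed under each of its 16 alternatives, with adjusted p between 0.000935 and 0.0122.

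Mrpl35, a large subunit protein with a bacterial counterpart, was measured by 2 probes listed for the same transcript. ILMN_1228027 read 5.18, 5.64 and 5.57 in FRG1 muscle, against 6.13, 6.30 and 6.33 in WT, a log2 fold change of -0.79 ± 0.15 (SE, n = 3 each, adjusted p = 0.00711 with limma). The brighter ILMN_2753924 read 6.91, 6.80 and 7.21 in FRG1 muscle, against 6.98, 7.29 and 7.40 in WT, a change of -0.25 (adjusted p = 0.332). The groups overlapped in the brighter probe alone.

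For Mrpl3, which lies near the peptidyl transferase centre, ILMN_1224395 read 5.90, 6.02 and 5.86 in FRG1 muscle, against 6.50, 6.70 and 6.47 in WT, a log2 fold change of -0.63 ± 0.12 (SE, n = 3 each, adjusted p = 0.00833 with limma). It is listed for a cDNA clone, while the 2 brighter probes are listed for the RefSeq transcript and had values of -0.22 and -0.19 (adjusted p = 0.324 and 0.434). The brightest read 10.01, 10.03 and 10.28 in FRG1 muscle, against 10.27, 10.21 and 10.49 in WT, and overlapped between the groups. With median scaling ILMN_1224395 did not pass (adjusted p = 0.0822).

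How far these 3 probes departed from the brightest probe of their gene was compared between the groups by an exact two-sided permutation test over the 6 arrays, in which 0.1 is the smallest p that 3 against 3 allows. The change differed by -1.10 for Mrps5 (p = 0.1, exact permutation test) and by -0.54 for Mrpl35 (p = 0.1, exact permutation test). It differed by -0.42 for Mrpl3 (p = 0.2, exact permutation test). The 3 probes were chosen for having passed, and after Benjamini-Hochberg adjustment over the 3 comparisons the values were 0.15, 0.15 and 0.2. Where on its transcript each probe lies was not analysed here.

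**Figure D3:**
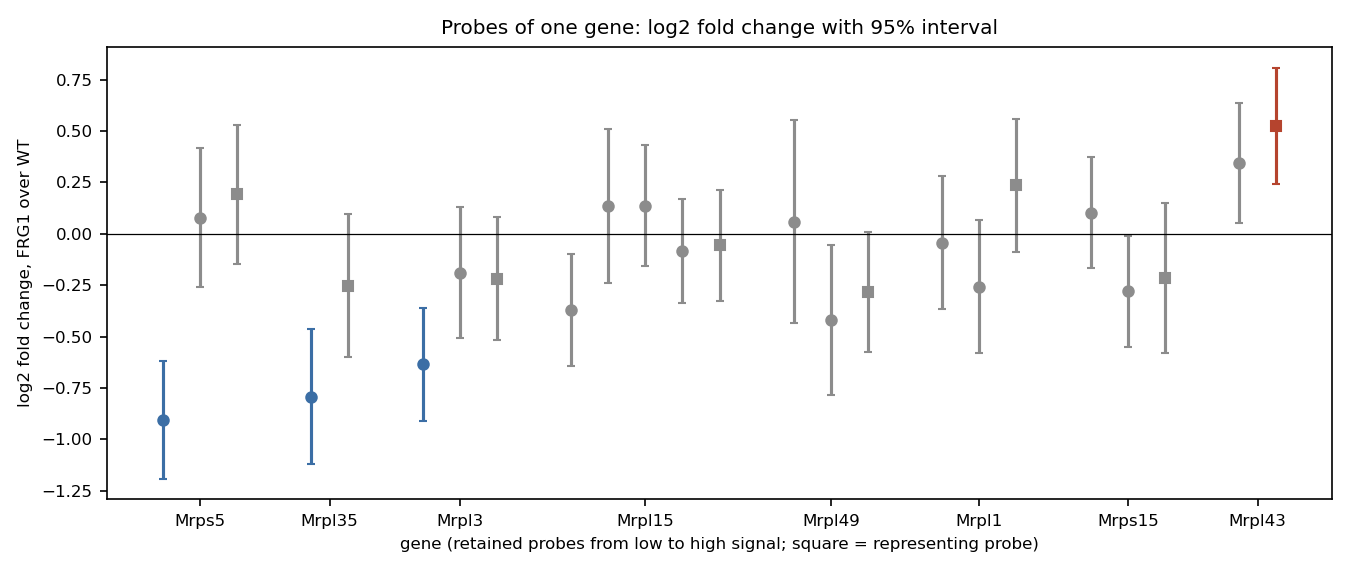
Log2 fold change (FRG1 over WT, y axis) with its 95% interval for each retained probe of 8 members, ordered from dim to bright within a gene. Squares are the probes that represent the gene, blue marks a probe past the threshold and lower in FRG1 muscle, and red one past the threshold and higher. The dimmest probes of Mrps5, Mrpl35 and Mrpl3 lie at -0.90, -0.79 and -0.63, below the other probes of these genes. Their intervals overlap those of the other probes for Mrpl35 and Mrpl3 but not for Mrps5.

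The other members with probes of differing sign stayed within small changes. The 5 probes of Mrpl15 ran between -0.37 and 0.14, the 3 of Mrpl49 between -0.42 and 0.06, the 3 of Mrpl1 between -0.26 and 0.24, and the 3 of Mrps15 between -0.28 and 0.10. None of these probes passed. Mrpl51, Mrps33 and Mrps31 had probe values between -0.10 and 0.07, and the brighter probe of Mrpl13 had a value of -0.02.

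For 6 genes of the rule no probe was retained: Mrpl32, Mrpl41, Mrpl45, Mrps14, Mrps22 and Mrps36. Each of their probes was detected on 0 of the 6 arrays, so their levels were not well above background and are not compared. Mrps36 is today counted as a subunit of the oxoglutarate dehydrogenase complex in place of the ribosome. The 70 probes that represent the measured members were detected on all 6 arrays, so no member passed the detection filter through 1 group alone.

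Many members share their upstream region with another gene. In the RefSeq table the start of 23 members faced the start of a gene on the opposite strand within 1000 bases, and for 18 of them that neighbour was measured as well. Because Mrpl46 and Mrps11 face each other, these are 17 distinct pairs. In 13 pairs the log2 fold changes had opposite signs, and in 4 the same sign. The share over all measured head-to-head genes is not given here, so these counts do not set the members apart. Most of these changes did not pass the threshold, and no test of the count was made.

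Of the genes past the threshold, Mrpl43 starts 116 bases from Twnk, the helicase that replicates mitochondrial DNA. Mrpl43 was higher by 0.53, while Twnk had a log2 fold change of -0.49 ± 0.14 (SE, n = 3 each, adjusted p = 0.0501). Mrpl40 starts 113 bases from Hira, a histone chaperone, which was lower in FRG1 muscle with a log2 fold change of -0.47 ± 0.12 (SE, n = 3 each, adjusted p = 0.0326 with limma). For the Mrpl40 and Hira pair both genes passed, in opposite directions. Mrpl46 starts 42 bases from Mrps11, another member, and the pair had changes of 0.52 and 0.21, the second with an adjusted p of 0.371. Mrps26 starts 8 bases from the noncoding RNA gene 4930473A02Rik, and the pair had changes of -0.54 and -0.15, the second with an adjusted p of 0.424.

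**Figure D4:**
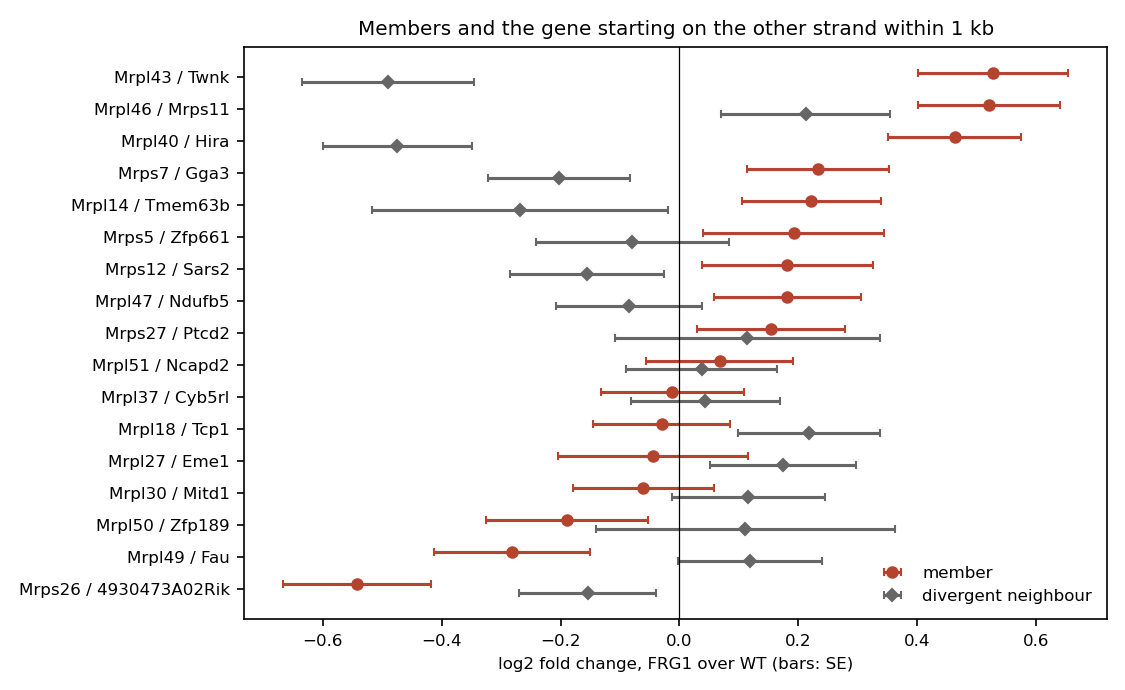
Log2 fold change (FRG1 over WT, x axis, bars are standard errors) of a member (red circle) and of the gene that starts on the opposite strand within 1000 bases (grey diamond), for the 17 measured pairs. The circle and the diamond lie on opposite sides of 0 in 13 pairs, a count given without the share over all head-to-head genes. Mrpl43 with Twnk and Mrpl40 with Hira are the widest apart.

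The promoter table held an entry for 61 of the 70 members, each from 250 bases before to 50 bases after the start. The ETS core CCGGAAG, on either strand, was found in 25 of the 61 (41%), against 18.6% of all measured genes with an entry and 9.93% of all promoters in the table. The NRF1 core GCGCATGC was found in 7 members (11.5%), against 5.85% of measured genes and 3.05% of all promoters. The YY1 core AAGATGGC was found on either strand in 11 members (18%), against 5.09% of measured genes and 3.19% of all promoters. The ETS core ends and the YY1 core begins with the letters AAG, so that matches of both can overlap, and a window can hold more than 1 motif. These factors are known for driving nuclear genes of mitochondria, and a match in the window is a description of letters only.

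The members' changes were set out by motif, with no test between them. With the ETS core, 1 member was higher (Mrpl43) and 1 lower (Mrps26) of 25, at a median log2 fold change of 0.03, and without it 2 were higher and 0 lower of 36, at a median of 0.04. The 7 members with the NRF1 core all had positive values, between 0.03 (Mrps18b) and 0.38 (Mrpl10), with a median of 0.23 and 0 past the threshold, and the 54 without it had a median of -0.01 and 4 passed. The 11 with the YY1 core had a median of 0.09 and 0 passed, against 0.02 for the 50 without it. Of 8 measured regulators of mitochondrial genes 0 passed. Among them the value of Gabpa, an ETS factor, was -0.47 (adjusted p = 0.0882), and that of Nrf1 was -0.05 (adjusted p = 0.874), while other ETS factors and YY1 are not analysed here. The coactivator Ppargc1b had a change of 0.56 (adjusted p = 0.0554), which was not the largest, since the 8 ran between -0.47 and 0.75. Their median was -0.02, with 3 positive and 5 negative values.

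Genes that work with the mitochondrial ribosome likewise changed in few cases. Of 3 measured ribosome proteins without an Mrp symbol (Dap3, Ptcd3 and Chchd1) 0 passed. Among 13 translation factors 0 were higher and 1 was lower, Gfm2, which helps to split the ribosome after translation, with 8.55, 8.49 and 8.38 in FRG1 muscle, against 8.93, 9.09 and 9.20 in WT (log2 fold change -0.60 ± 0.12, SE, n = 3 each, adjusted p = 0.0119 with limma). Among 23 ribosome assembly factors 0 passed in either direction, with a median of 0.01.

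Of 15 genes for charging mitochondrial tRNA, 1 was higher, Gatb, a subunit of the enzyme that makes glutaminyl-tRNA, with a log2 fold change of 0.50 ± 0.13 (SE, n = 3 each, adjusted p = 0.0285 with limma). Of 19 genes for mitochondrial RNA handling 1 was lower, Gtpbp3, which modifies mitochondrial tRNA, with a change of -0.52 ± 0.13 (SE, n = 3 each, adjusted p = 0.0233 with limma). Of 9 genes for transcription and replication of mitochondrial DNA 0 passed, and Twnk, already described, came closest. The mRNAs that the mitochondrial ribosome translates are not analysed here.

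Among markers of mitochondrial content and genes for protein import, those past the threshold were lower in FRG1 muscle. Of 15 markers of mitochondrial content 0 were higher and 3 lower: Idh3a of the citric acid cycle (log2 fold change -0.95 ± 0.13, SE, n = 3 each, adjusted p = 0.00153 with limma), the outer membrane channel Vdac3 (-0.79, adjusted p = 0.00358) and the ADP/ATP carrier Slc25a4 (-0.48, adjusted p = 0.0498). The 15 markers had a median log2 fold change of -0.09 (-0.03 with median scaling), with 6 positive and 9 negative values. Idh3a read 10.70, 10.44 and 10.51 in FRG1 muscle, against 11.56, 11.33 and 11.61 in WT. Of 15 genes for protein import 1 was lower, the receptor Tomm70a (log2 fold change -0.94, adjusted p = 0.00115), which read 7.55, 7.61 and 7.60 in FRG1 muscle, against 8.34, 8.62 and 8.59 in WT. These 4 genes did not overlap between the groups.

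Of 72 measured nuclear subunits of oxidative phosphorylation 0 were higher and 2 lower, with a median log2 fold change of -0.02 (0.01 with median scaling). Ndufb11 of complex I had a change of -0.47 (adjusted p = 0.0441), and Uqcrfs1, the iron-sulfur protein of complex III, was not well above background on any FRG1 array and has an adjusted p of 0.0158. Of 51 measured proteins of the cytosolic ribosome and close relatives 3 were higher and 1 lower, with a median of 0.12 (0.17 with median scaling), and 39 had a positive change. Rps27l (0.70, adjusted p = 0.0051) and Rpl29 (0.57, adjusted p = 0.0275) were higher, as was Rps19, not well above background on any WT array (adjusted p = 0.0304). Rps19 thus passed the detection filter through FRG1 alone, and Uqcrfs1 through WT alone, so their calls rest on that filter. Rpl22l1 was lower (-0.59, adjusted p = 0.0299). Rps27l and Rpl22l1 are paralogs of ribosomal proteins rather than the usual subunits. No difference between these lists and the members was tested.

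**Figure D5:**
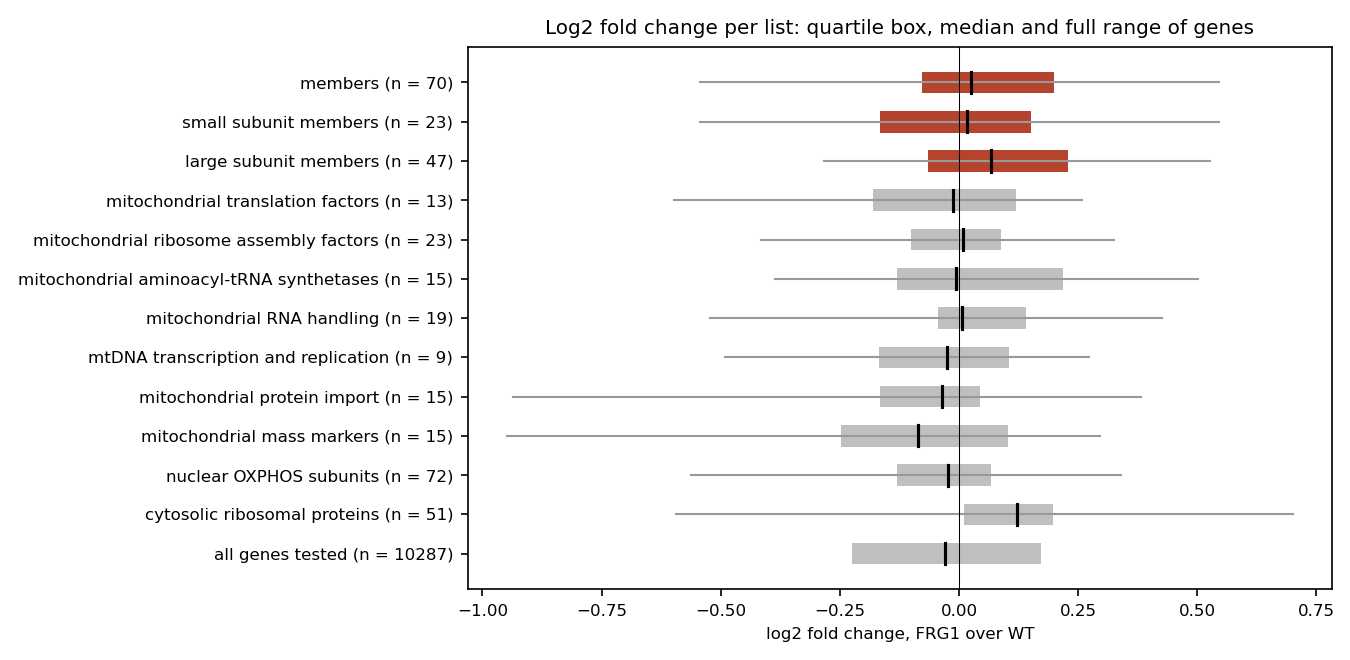
Log2 fold change (FRG1 over WT, x axis) of the genes of each list: the box spans the quartiles, the black line is the median and the thin line runs to the lowest and the highest gene (not drawn for all genes). The members (red) have a median of 0.02 and the cytosolic ribosomal proteins one of 0.12, beside -0.03 for all genes.

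Markers of other cells moved between the same groups. Macrophage markers were higher in FRG1 muscle for 8 of the 10 measured and lower for 0, and their summed linear intensity lay between 4655 and 5995 in FRG1 muscle, against 2243 to 2535 in WT. Of 10 endothelial markers 0 were higher and 3 lower, with sums between 4173 and 5292 in FRG1 muscle, against 5597 to 6659 in WT. Of 7 pericyte and smooth muscle markers 2 were lower, of 6 fibroblast markers 1 was lower, and of 3 tendon markers 2 were lower. Changes of the 6 fibroblast markers were positive for 4 and negative for 2, with a median of 0.05. Of 3 neutrophil markers 0 passed, with a median deviation from the WT mean of 4.67 on FRG1 Sample871, 0.20 on FRG1 Sample873 and 0.63 on FRG1 Sample874, against -0.22 to 0.24 on the WT arrays. Of 2 lymphocyte markers 1 was higher, Cd79b (log2 fold change 0.78, adjusted p = 0.0486). Cd79b was detected on 3 FRG1 arrays and 1 WT array, so it passed the detection filter through FRG1. It read 6.09 on FRG1 Sample871, against 5.19 and 5.25 on the other FRG1 arrays. Of 3 Schwann cell markers 0 passed, with values between -0.63 and -0.39. Of 3 adipocyte markers and of 4 erythroid markers 0 passed. Of 4 markers of slow fibres, which hold more mitochondria than fast ones, 2 were higher (Tnnt1 and Tnni1), with sums between 12831 and 16712 in FRG1 muscle, against 8763 to 10802 in WT. The part of these cell and fibre types in the members' changes was not tested.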

How the data were processed

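Vastus lateralis RNA of 3 FRG1 and 3 WT mice was measured. The authors deposited a table of signal intensity and detection p-value for 46632 probes on 6 arrays, not normalized per the file headers, and a table of processed intensity, made with lumi per the submitters' processing notes, whose version and settings are unknown here. The second served as an alternative only. The scale of its values appears linear after background subtraction, with column medians between 5.07 and 5.15. What was subtracted is unknown.

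Signals were background corrected and quantile normalized with neqc (limma 3.58.1, R 4.3.3, offset 16, negative controls inferred from detection p-values) and taken to log2. Probes with a detection p under 0.05 on at least 3 of 6 arrays (19563) were fitted with lmFit and eBayes, with group as the only term. Two-sided p-values were adjusted by Benjamini-Hochberg over all of them, with a threshold of 0.05. The brightest retained probe (mean over 6 arrays) represented a gene. The offset shrinks the changes of dim probes. Names came from the platform annotation, updated to RefSeq GRCm38.p6. 29976 probes had 1 symbol, 10 several and 16646 none, and probes with several were not named. Subunit and origin follow general knowledge of the ribosome. The labels do not say how the animals were bred or handled, so the spread behind the p-values is that among these samples and may be partly technical. The headers give no slide or date.

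The members and lists were chosen with earlier results of these data known. Every member past the threshold was named, with the 12 smallest p-values in each direction, the 3 brightest members, those with probes of differing sign, the largest changes not past the threshold, and list genes past it (up to 6 a list). Mrpl12, Mrpl52, Gabpa, Nrf1, Ppargc1b, S100a8, the members with the NRF1 core and the head-to-head neighbours were added after their values were seen. The fit was tested on simulated data before use. Alternatives covered background correction, normalization, detection filter, variance model, array weights, the processed table, averaged probes and leaving out each replicate.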

Additional observations from a re-analysis of the deposited data

How the results depend on the processing

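Across 17 alternatives, each of the 5 called members kept its direction. Leaving out 1 replicate gave 1330 to 2696 probes past the threshold (2702 with all), 0 to 4 members higher (4) and 0 to 1 lower (1), 0 to 3 large subunit members higher (3), and 0 to 1 small subunit members higher and 0 to 1 lower (1 each). All 5 calls were lost without FRG1 Sample871 and without FRG1 Sample873. With normexp at offset 50, 5 large subunit members were higher, and 2 members were lower, both of the small subunit (2). With median scaling 0 members were lower (0 of the small subunit), the median change was 0.14 over the members (0.139), 0.138 for the large and 0.14 for the small subunit, against 0.10 over all genes, and 1923 of 2430 probes past the threshold were higher, against 1389 of 2702. With the probes of a gene averaged, 2 members were lower, 1 of them of the large subunit, Mrpl35 (-0.52, adjusted p = 0.0288). Members that passed only under an alternative were Mrpl10 with median scaling, Mrpl20, Mrps17 and Mrps30 with normexp, and Mrps30 with a trended, robust variance. The causes were not tested. A slide block was not run, since the headers give no slide. No paired analysis was possible because the groups share no replicate number.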
